A study of Mus musculus with 30 samples.

Results

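The genes of MHC class I antigen presentation and of the immunoproteasome were followed through the fracture callus of lean and diet-induced obese (DIO) mice. They are 10 of the 43629 genes in the deposited count table, chosen by name: H2-K1, H2-D1, B2m, Tap1, Tap2, Tapbp, Psmb8, Psmb9, Psmb10 and Nlrc5. Each was found by its Ensembl identifier, and all 10 passed the filter on low counts in every comparison. RNA was sequenced from 30 calli, 1 mouse each and 3 mice in each group, after an open osteotomy of the tibia stabilised with an intramedullary nail. All were male C57BL/6J mice, 20 weeks old at fracture. DIO mice had been fed a high-fat diet and gave callus at 6 times, d3, d5, d7, d10, d14 and d21 after fracture. Lean mice had been fed a low-fat diet, and the lean libraries analysed here are of the first 4 of these times, so that values of d14 and d21 are from DIO mice alone. DIO mice here are a model of obesity by diet in 1 sex of 1 inbred strain.

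MHC class I molecules show peptides from inside the cell to CD8 T cells. The heavy chains H2-K1 and H2-D1 pair with the light chain B2m, the transporter subunits Tap1 and Tap2 carry peptides into the endoplasmic reticulum, and Tapbp (tapasin) holds the empty class I molecule at the transporter. Psmb8, Psmb9 and Psmb10 are the catalytic subunits that replace Psmb5, Psmb6 and Psmb7 in the immunoproteasome, a form of the proteasome typical of blood cells and of cells exposed to interferon, and Nlrc5 is the transactivator of class I genes.

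On GRCm38, 7 of the 10 genes lie on chromosome 17, within the mouse MHC. In order along the chromosome these are Tapbp (chr17:33915899-33929292, plus strand), H2-K1 (chr17:33996017-34000347, minus), Psmb9 (chr17:34181987-34187764, minus), Tap1 (chr17:34187553-34197225, plus), Psmb8 (chr17:34197721-34201454, plus), Tap2 (chr17:34203527-34216321, plus) and H2-D1 (chr17:35262730-35267499, plus). B2m lies at chr2:122147686-122153083 (plus), Psmb10 at chr8:105935735-105938444 (minus) and Nlrc5 at chr8:94434356-94527272 (plus). Tap1 and Psmb9 face away from each other, with 225 bases between their RefSeq starts. The GENCODE models of Tap1 and Psmb9 share 212 exon bases on opposite strands. Tapbp shares 904 exon bases (24.9%) with a gene on the opposite strand and 149 with another on its own strand. Psmb8 shares 498 (14.7%) and Tap2 533 (14.1%) with opposite-strand genes of 17 counts each over the 30 libraries. The strand setting of the read counting is not given in the sources used here.

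Short stretches before the starts of the heavy chain and light chain genes are shown, as the products of these genes form the class I molecule. RefSeq windows of 250 bases before the start (GRCm38.p6) were found for 8 of the 10 members and searched on both strands. Tap2 and Nlrc5 had no entry. In H2-K1 (chr17:34000359-34000388, minus), H2-D1 (chr17:35262993-35263022, plus) and B2m (chr2:122147609-122147638, plus) the letters TGACG were followed after 20 bases by ATTGG. They are in capitals below, each read 5′ to 3′ on the gene's strand.
H2-K1: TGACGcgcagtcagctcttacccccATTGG
H2-D1: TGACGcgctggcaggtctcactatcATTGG
B2m: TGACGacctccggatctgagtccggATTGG
Tap1: TGACGacagagggtcctgccctcaatctgg
The last line is the only TGACG of the Tap1 window (chr17:34187470-34187499, plus), with no ATTGG at that distance. TGACG is the core of the cyclic AMP response element and ATTGG that of the Y box read by NF-Y. The spaced pair was chosen after these windows had been read, and it occurred in 26 of 27025 genes (0.0962%). TGACG alone was in 19.8% of genes and in 5 of the 8 members' windows, and ATTGG alone in 37.5% of genes and in 6 of 8. Between H2-K1 and H2-D1, 23 of the 30 bases were identical, against 13 between H2-K1 and B2m.

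The same 3 windows held AANNGAAA, the core of the sites read by interferon regulatory factors, which was in 23.9% of genes. Its fixed letters are in capitals, read as their reverse complement in the heavy chain genes.
H2-K1: catctccacagTTTCacTTctgcacctaac
H2-D1: catctcctcagTTTCacTTctgcacctaac
B2m: taagaacatgaAActGAAAatgggaaagtc
These stretches lie at chr17:34000419-34000448 (minus), chr17:35262933-35262962 (plus) and chr2:122147539-122147568 (plus). AANNGAAA was not found in the windows of Tap1, Tapbp, Psmb8, Psmb9 and Psmb10. The H2-D1 stretches lie before the RefSeq start but within the GENCODE span of that gene given above. The Tap1 stretch lies within the GENCODE span of Psmb9. A match is only a run of letters, and binding was not measured.

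Between 13247122 and 26365620 reads per library were counted on genes. Levels are given as counts per 1000000 counted reads (CPM), scaled with edgeR's TMM factors. The lean d10 library of replicate 1 stood apart: 9 chondrocyte markers summed to 83714 CPM in it, against 17843 and 18998 CPM in the other lean d10 libraries, and 10 leukocyte genes summed to 1126 CPM, against 1655 and 1864. In bulk tissue, fewer cells of a type and less RNA per cell cannot be told apart.

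Per kilobase of exon, the light chain was the most abundant member. The median over 30 libraries was 771 CPM per kb for B2m, 283 for H2-D1 and 181 for H2-K1. Tapbp followed at 43.7 CPM per kb, then Psmb10 at 32.5, Psmb8 at 21.1, Tap2 at 14.9, Tap1 at 10.3, Psmb9 at 6.90 and Nlrc5 at 2.99. The structural genes were thus read far more than the transporter, the immunoproteasome and the transactivator. The lowest count of any member in any library was 116, for Psmb9. The lowest and the highest library differed least for Tapbp, 2.08-fold, and most for Psmb9, 7.28-fold. Of the H2-D1 transcript, 428 bases (20.4%) were at least 95% identical over at least 100 bases to other genes, the longest stretch to H2-Q7. For Tapbp this was 783 bases (27%) in 29 genes, the longest stretch to the gene that overlaps it on the opposite strand. Values of H2-D1 and Tapbp are thus less certain than those of H2-K1, B2m, Psmb10 and Nlrc5, which had no such stretch.

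**Figure D1:**
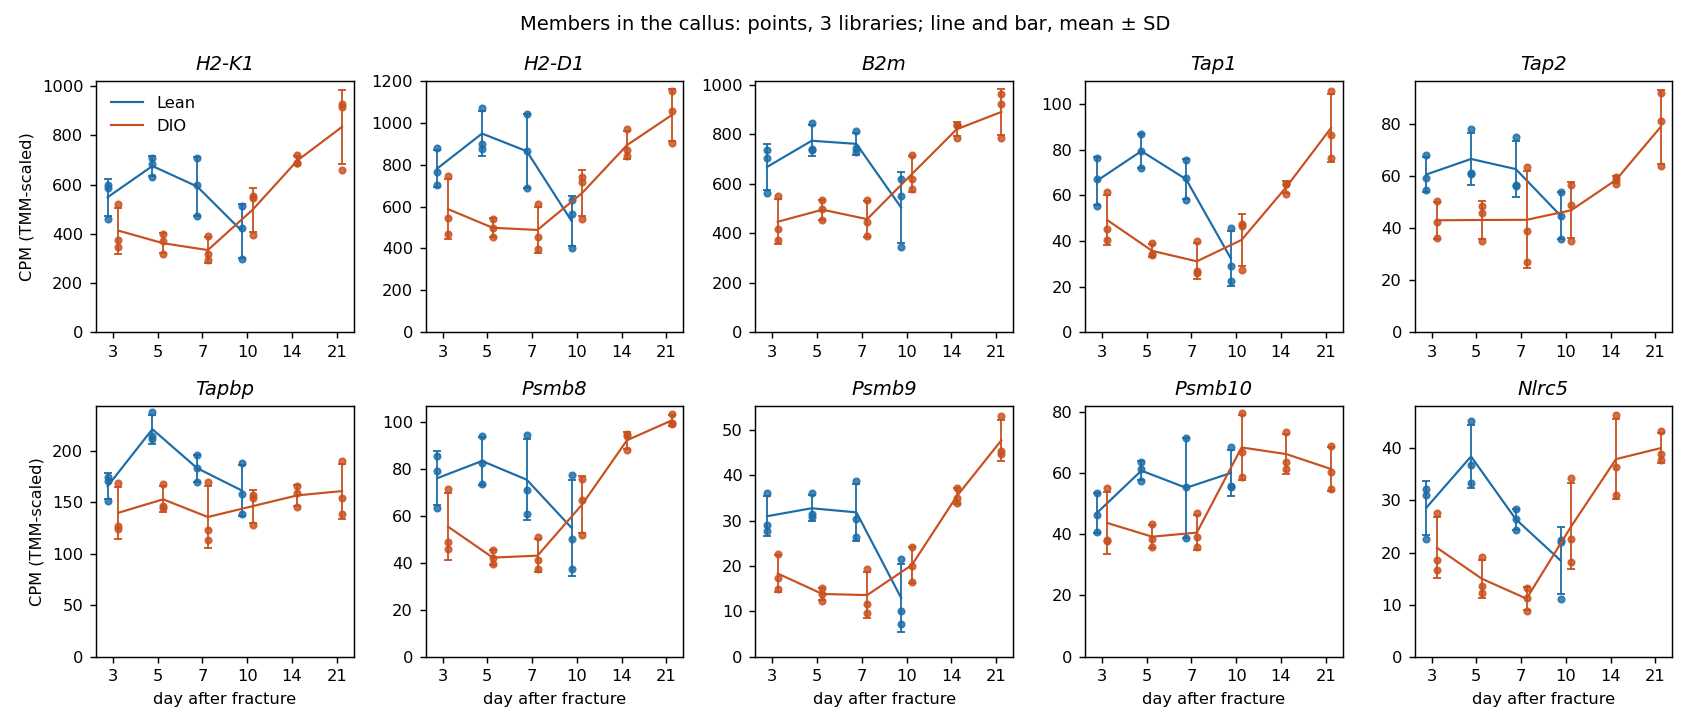
Level of each member (vertical axis, TMM-scaled CPM from 0) by day after fracture (horizontal axis, categories) in lean (blue) and DIO (orange) callus; points are the 3 libraries of a group, and lines and bars the mean ± SD. On d5 all 10 members lie lower in DIO with no overlap, and on d10 the diets overlap for every member.

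Whether obesity changed class I expression was compared on each day that had both diets. On d5 all 10 members were lower in DIO callus with no overlap between the diets, which was so for 12.3% of all genes tested. With edgeR, 7 of the 10 passed the test, all lower, against 0.948% of all genes called lower. These were H2-K1, H2-D1, Tap1, Psmb8, Psmb9, Psmb10 and Nlrc5. The median log2 fold change of the members was -0.91, and 0.01 over all genes.

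The heavy chain H2-K1 was at 685, 709 and 632 CPM in lean d5 callus and at 397, 318 and 369 CPM in DIO, a log2 fold change of -0.90 ± 0.13 (SE, adjusted p = 0.0384). For H2-D1 the lean libraries were at 901, 1073 and 875 CPM and the DIO libraries at 543, 454 and 499.6 CPM (-0.93 ± 0.14, adjusted p = 0.0415). The lowest lean library was above the highest DIO library for each heavy chain. B2m, at 847, 740.2 and 736 CPM in lean and 499, 535 and 453 CPM in DIO, had a log2 fold change of -0.64 ± 0.13 and did not pass the test (adjusted p = 0.0654).

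Tap1, the subunit encoded beside Psmb9, was at 71.9, 87.0 and 79.2 CPM in lean and at 39.0, 33.6 and 34.4 CPM in DIO (-1.15 ± 0.12, adjusted p = 0.0221). Its partner Tap2 was at 61.2, 78.1 and 60.8 CPM in lean and at 45.8, 35.1 and 48.7 CPM in DIO, with a log2 fold change of -0.62 ± 0.16 (adjusted p = 0.103). Tapbp had the smallest difference of the 10, -0.53 ± 0.11 (adjusted p = 0.0716). Of the loading and transport genes, Tap1 alone passed the test on d5.

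Among the immunoproteasome subunits, Psmb9 was at 31.4, 36.0 and 30.7 CPM in lean and 15.2, 13.9 and 12.4 CPM in DIO (-1.24 ± 0.13, adjusted p = 0.0252). Psmb8 had a log2 fold change of -0.98 ± 0.12 (adjusted p = 0.0296) and Psmb10 one of -0.63 ± 0.11 (adjusted p = 0.0485). The transactivator Nlrc5 had the largest difference of the members, with 45.2, 36.7 and 33.4 CPM in lean and 19.1, 13.7 and 12.2 CPM in DIO (-1.35 ± 0.20, adjusted p = 0.0384). All DIO libraries of Psmb9 and Nlrc5 were below every lean library.

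The d5 calls depended on single mice. Without lean d5 replicate 2, or without any 1 of the 3 DIO d5 libraries, 0 members passed in edgeR, while all 10 kept an unadjusted p under 0.05 each time. With the replicate number as a block 0 members and 0 of all genes passed, again with all 10 members at an unadjusted p under 0.05, and DESeq2 called all 10 with every library kept. For counts at an unadjusted p or with 1 library left out, here and below, the share of all genes is not given.

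**Figure D2:**
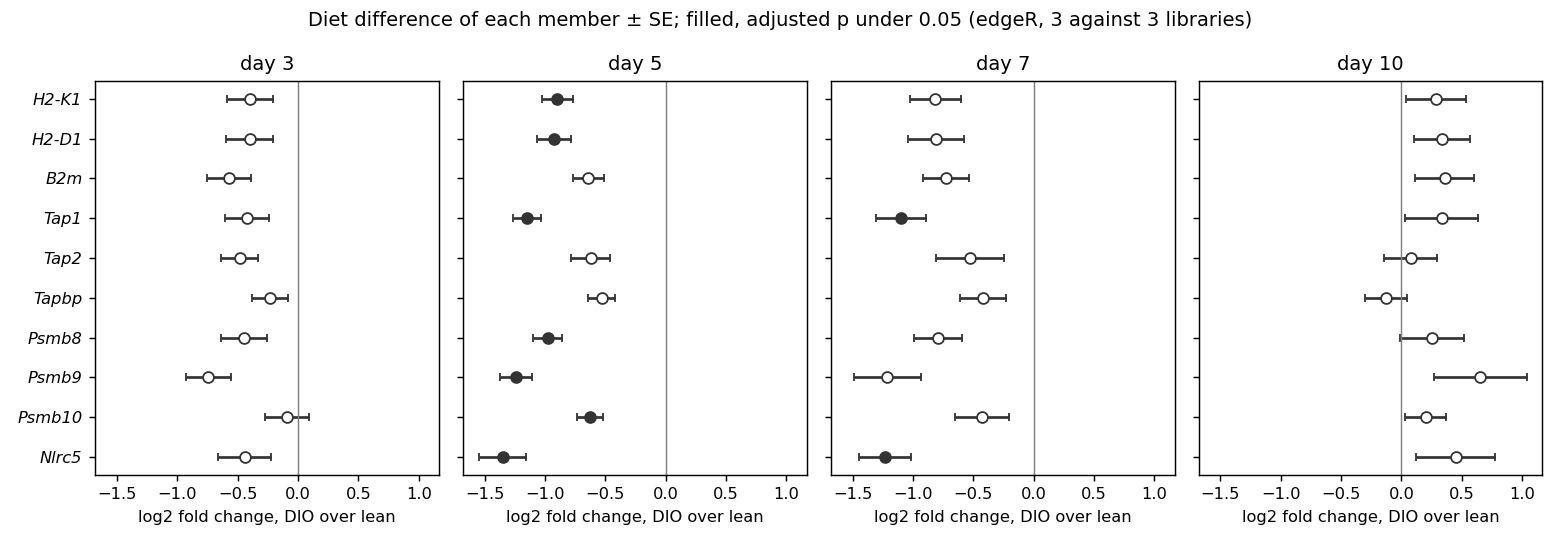
Log2 fold change of DIO over lean (horizontal axis) for each member (rows) on d3, d5, d7 and d10, with SE; filled circles passed an adjusted p of 0.05 in edgeR, with 3 libraries in each diet. All members lie left of 0 on d3, d5 and d7, with 7 filled on d5 and 2 on d7, and 9 of 10 lie right of 0 on d10.

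On d7, 7 of the members were lower in DIO with no overlap, beside 11.9% of all genes. Tap1 and Nlrc5 passed the test, 2 of 10, against 0.92% of all genes called lower. Nlrc5 was at 24.4, 26.5 and 28.4 CPM in lean and 13.3, 8.82 and 11.4 CPM in DIO (-1.23 ± 0.21, adjusted p = 0.0241). Tap1 was at 57.9, 75.5 and 67.7 CPM in lean and 27, 26.02 and 40.1 CPM in DIO (-1.10 ± 0.21, adjusted p = 0.0293). DIO d7 replicate 3 was the highest of its group for 8 members and also for the leukocyte genes, which summed to 1827 CPM in it and to 975 and 1330 CPM in the others. Without it 7 members passed, without any 1 of the lean d7 libraries 0 passed in edgeR (7 to 8 at an unadjusted p under 0.05), and without DIO d7 replicate 1 or 2 it was 1.

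On d3 all 10 differences were negative (median -0.43), 3 members did not overlap between the diets (12% of all genes were lower in this way) and 0 passed the edgeR test, as did 0% of all genes. At an unadjusted p under 0.05 there were 5 members, and 1 passed with DESeq2. On d10, 9 of 10 differences were positive (median 0.31), 0 members were higher without overlap (6.86% of all genes were), and 0 members and 0% of all genes passed. No member had an unadjusted p under 0.05 on d10, and 0 passed with DESeq2. Tested over the 4 days together, 7 members differed between the diets, beside 5.91% of all genes. The exceptions were Tap2, Tapbp and Psmb10.

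The leukocyte genes moved with the members. On d5, 6 of 10 passed as lower in DIO, among them Ptprc (CD45, a phosphatase of all nucleated blood cells), at -0.96 ± 0.15 (adjusted p = 0.0432), and the list summed to between 2017 and 2874 CPM in lean and between 1114 and 1240 CPM in DIO callus. No leukocyte gene was at 0 in any group. Among other marker lists on d5, 2 of the 9 T and NK cell genes tested passed as lower in DIO (median -1.84), and 0 of 9 neutrophil genes passed (median -1.91, with 8 at an unadjusted p under 0.05 and 0 called with DESeq2). The 8 macrophage genes were all negative, with a median of -0.61, and 0 passed in edgeR, with 7 at an unadjusted p under 0.05 and 5 called with DESeq2. Of the 7 dendritic cell genes tested 1 passed as lower, Flt3 (-1.63, adjusted p = 0.0498), with a list median of -1.52. The list was not uniform, with Batf3 positive (0.48) and Zbtb46 at -0.06. The B cell genes (median -2.51 over 5 tested) and the erythroid genes (-1.71 over 7) were all negative, each at an unadjusted p under 0.05. The 9 chondrocyte markers were all positive, with a median of 1.2, and 0 passed (4 at an unadjusted p under 0.05, 1 with DESeq2). Divided by the summed count of these 10 genes in the same library, H2-K1 was at 336, 247 and 313 per 1000 leukocyte counts in lean d5 callus and at 320.4, 283 and 331 in DIO. Over the 10 members, this relative log2 difference on d5 had a median of 0.06 and ran from -0.40 for Nlrc5 to 0.44 for Tapbp, with 4 negative. On this scale 4 members did not overlap between the diets on d5, in differing directions: Psmb9 was lower in DIO, at 12.3, 12.3 and 11.1 against 15.4, 12.5 and 15.2 per 1000 (-0.27), and Tap2 (0.35), Tapbp (0.44) and Psmb10 (0.34) were higher. Each gave a two-sided exact permutation p of 0.1, the smallest that 3 against 3 allow. The share of all genes without overlap on this scale is not known, so the count of 4 cannot be set against it. On d3 the median on this scale was 0.31 with 1 of 10 negative, so the direction turned there. On d7 it was -0.01 with 5 negative, and on d10 it was 0.02 with 4 negative. On d7, 3 of the 8 macrophage genes passed as lower in DIO, Csf1r (-1.02), Cd68 (-0.96) and Mrc1 (-1.02). The leukocyte scale was added after the values had been seen, and the part of these cells in the diet difference was not tested beyond it.

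**Figure D3:**
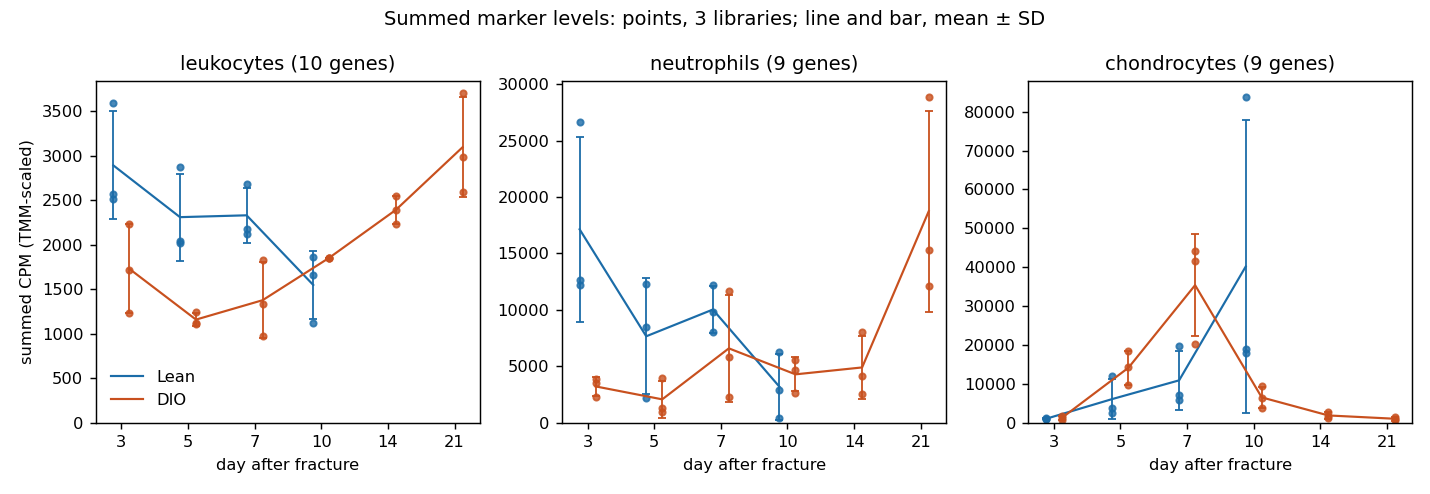
Summed level of the leukocyte, neutrophil and chondrocyte markers (vertical axes, TMM-scaled CPM from 0) by day in lean (blue) and DIO (orange) callus; points are the 3 libraries, and lines and bars the mean ± SD. The leukocyte sums of the diets do not overlap on d5, and 1 lean d10 library reaches 83714 CPM of chondrocyte markers.

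The ratio of each immunoproteasome subunit to the constitutive subunit it replaces was taken within a library, per kilobase. On d5 Psmb8/Psmb5 was 0.387, 0.371 and 0.361 in lean and 0.176, 0.219 and 0.1495 in DIO callus, a log2 difference of -1.06 ± 0.16 (SE). Psmb9/Psmb6 was 0.101, 0.115 and 0.0975 in lean and 0.0497, 0.0376 and 0.0363 in DIO (-1.35 ± 0.16), and Psmb10/Psmb7 was 0.963, 1.16 and 1.14 in lean and 0.751, 0.555 and 0.749 in DIO (-0.67 ± 0.17). The diets did not overlap for any of these ratios. Each gave p = 0.1 by a two-sided exact permutation test, the smallest possible with 3 against 3, and 0.15 after adjustment over the 18 ratio comparisons, so no ratio could pass a threshold of 0.05. The constitutive genes Psmb5, Psmb6 and Psmb7 had log2 fold changes of 0.09, 0.11 and 0.04 on d5, and 0 of 3 passed with edgeR or DESeq2 or had an unadjusted p under 0.05. On d7 the ratios differed by -1.04 ± 0.21, -1.66 ± 0.42 and -0.68 ± 0.29 in the same order, again without overlap, and on d10 the diets overlapped for all 3.

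**Figure D4:**
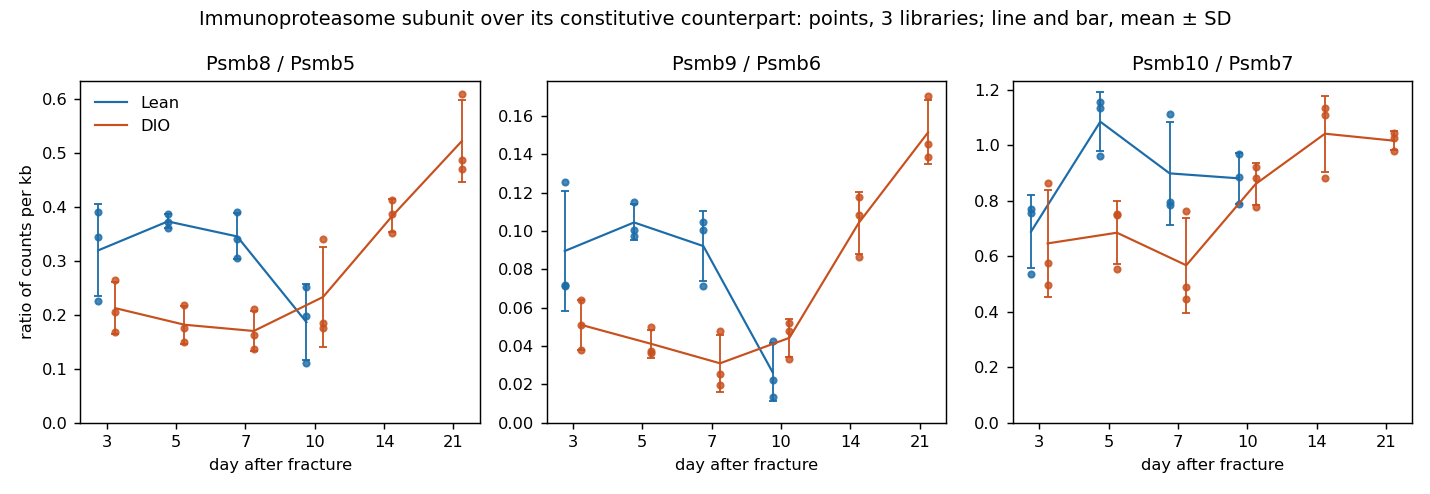
Ratio of counts per kb (vertical axes, from 0) of Psmb8 to Psmb5, Psmb9 to Psmb6 and Psmb10 to Psmb7 by day in lean (blue) and DIO (orange) callus; points are the 3 libraries, and lines and bars the mean ± SD. On d5 and d7 the DIO points lie below the lean points for each ratio, and DIO d21 has the highest ratios of Psmb8 and Psmb9.

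In DIO callus the mean of 9 members was highest on d21, and that of Psmb10 on d10. Between d3 and d21, 9 of 10 passed as higher, all but Tapbp, against 23.5% of all genes called higher. For 8 of them the days did not overlap (28.8% of all genes). H2-K1 went from 519.8, 373 and 346 CPM on d3 to 927, 917 and 660.4 CPM on d21 (1.02 ± 0.20, adjusted p = 0.000524). B2m rose by 1.00 ± 0.17 (adjusted p = 0.000209) and H2-D1 by 0.82 ± 0.20 (adjusted p = 0.00349). The d21 libraries were all above the d3 libraries for these genes.

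Psmb9 rose most, from 22.7, 17.3 and 15.0 CPM to 52.9, 44.7 and 45.4 CPM (1.38 ± 0.22, adjusted p = 9.36e-05). The changes of Psmb8, Tap1, Tap2 and Nlrc5 were 0.86, 0.87, 0.87 and 0.94, and that of Psmb10 was 0.49 ± 0.17 (adjusted p = 0.0256). Tapbp, at 0.20 ± 0.17, did not pass (adjusted p = 0.358). The ratio Psmb8/Psmb5 went from 0.264, 0.206 and 0.167 to 0.4695, 0.487 and 0.608 over these days (log2 difference 1.31 ± 0.22, exact permutation p = 0.1), with no overlap. The constitutive subunits had lower means on d21 than on d3, which adds to this ratio. Psmb5 went from 69.5 to 52.2 CPM, Psmb6 from 185.4 to 162.6 CPM and Psmb7 from 137.5 to 121.3 CPM.

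The marker lists also differed between these days. Of the leukocyte genes 8 of 10 passed as higher on d21, with sums of 1232 to 2235 CPM on d3 and 2598 to 3702 CPM on d21, and so did 12 of 13 T and NK cell genes, 6 of 6 B cell genes, 9 of 9 neutrophil genes, 7 of 7 erythroid genes and 6 of 6 adipocyte genes. The adipocyte genes summed to between 107.5 and 261 CPM on d3 and to between 844 and 939 CPM on d21. Of 8 dendritic cell genes 4 passed as higher, and of 8 macrophage genes 1 passed as higher and 2 as lower. In the osteoblast list Bglap, Dmp1 and Phex passed as higher and Ibsp, Sp7 and Alpl as lower. Pecam1, Cdh5 and Egfl7 of the endothelial list passed as lower, as did Acta1 and Myh1 of the muscle list. The other genes of the osteoblast, endothelial and muscle lists did not pass. The neutrophil genes summed to between 2288 and 3890 CPM on d3. Relative to the summed leukocyte count, the members' differences from d3 to d21 had a median of 0.02, with 3 negative, namely H2-D1 (-0.03), Psmb10 (-0.36) and Tapbp (-0.66). The part of these cells in the rise of the members was not tested beyond this ratio.

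Tested over all DIO days, 9 of 10 members differed, beside 59.1% of all genes. Fewer members passed between neighbouring days than between d3 and d21. From d3 to d5 (1.68% of all genes called), d5 to d7 (0.0177%), d10 to d14 (0.759%) and d14 to d21 (19.6%), 0 members passed with edgeR. Unadjusted p-values under 0.05 were reached by 2, 0, 5 and 1 members in that order, without a share of all genes to set beside them, and DESeq2 called 0, 0, 1 and 0. From d7 to d10, 3 members passed as higher, beside 6.01% of all genes, and 5 did not overlap (13.5% of all genes). Nlrc5 went from 13.3, 8.82 and 11.4 CPM to 34.3, 22.6 and 18.3 CPM (1.16 ± 0.26, adjusted p = 0.00548). Psmb10 rose by 0.75 ± 0.17 (adjusted p = 0.00641) and Psmb8 by 0.59 ± 0.17 (adjusted p = 0.0297). Without DIO d7 replicate 3 the count was 5.

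In lean callus the mean of all 10 members was highest on d5, and that of 9 was lowest on d10. Psmb10 was lowest on d3. Over the lean days 3 members differed, Tap1, Psmb9 and Nlrc5, beside 19% of all genes. From d3 to d5 (0.449% of all genes called) and d3 to d7 (1.67%), 0 members passed with edgeR, with 1 and 0 at an unadjusted p under 0.05 and 0 in each with DESeq2. From d7 to d10, 6 members were lower without overlap (14.8% of all genes) and Tap1 passed as lower, 1 of 10, beside 1.65% of all genes, from 57.9, 75.5 and 67.7 to 22.4, 45.5 and 28.99 CPM (-1.03 ± 0.22, adjusted p = 0.0394). From d3 to d10, Tap1 (-0.997 ± 0.22, adjusted p = 0.00703) and Psmb9 (-1.22 ± 0.32, adjusted p = 0.0143) passed as lower, 2 of 10, against 14.1% of all genes called lower. Without lean d10 replicate 1, the library rich in chondrocyte markers, the d7 to d10 count was 0 and the d3 to d10 count was 2. The leukocyte genes summed to between 2124 and 2687 CPM on lean d7 and to between 1126 and 1864 CPM on lean d10. Of these genes 0 passed between the days with edgeR, 7 of 10 had an unadjusted p under 0.05 and DESeq2 called 6. Their part in the lower levels was not tested.

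The diet difference itself changed from d7 to d10. In the interaction contrast 6 members passed, H2-K1, H2-D1, B2m, Tap1, Psmb9 and Nlrc5, all towards higher values in DIO, against 1.7% of all genes called in that direction. The change was largest for Psmb9, 1.87 ± 0.42 (adjusted p = 0.0143), whose DIO libraries were at 11.7, 9.70 and 19.4 CPM on d7 and 20.0, 24.2 and 16.4 CPM on d10, and whose lean libraries were at 26.3, 38.7 and 30.4 CPM and then at 7.27, 21.5 and 10.0 CPM. It was 1.68 ± 0.38 for Nlrc5 (adjusted p = 0.0155), and 1.11 ± 0.29 for H2-K1 (adjusted p = 0.0323). The lean Psmb9 libraries of d10 all lay below those of d7, while the DIO libraries of the same days overlapped. The count was 2 without lean d10 replicate 1, 1 without lean d7 replicate 2, 2 without DIO d7 replicate 2 and 1 without DIO d10 replicate 1. Of the 9 chondrocyte markers 6 passed in the opposite direction in the same contrast, with sums of 17843 to 83714 CPM in lean and 3921 to 9352 CPM in DIO callus on d10. In the members' own direction 2 of 8 macrophage genes passed, Csf1r (1.18, adjusted p = 0.0143) and Cd68 (0.96, adjusted p = 0.0343), and all 8 were positive, as were all 10 leukocyte genes, of which 1 passed (median 1.10). Of 6 adipocyte genes 1 passed in that direction, with all 6 positive. The part of these cells in the result was not tested. From d3 to d5, 0 members and 0% of all genes passed in edgeR, with 2 members at an unadjusted p under 0.05 and 0 called with DESeq2.

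The other genes of the pathway, from lists written for this report, moved in part with the members. On d5, 3 of 9 nonclassical class I genes passed as lower in DIO callus: H2-Q4 (-1.21), H2-T23 (-1.12) and H2-T22 (-0.59). H2-T23 encodes Qa-1, a ligand of inhibitory receptors on NK and T cells. Of the 12 other genes of the 20S core and its assembly 0 passed with edgeR or DESeq2 and 1 had an unadjusted p under 0.05, with a median of 0.12 and 11 of 12 positive. The ER chaperones Calr (0.49), Canx (0.36) and Pdia3 (0.51) were positive and did not pass in edgeR. Of the 5 loading and trimming genes 0 passed, 4 had an unadjusted p under 0.05 and DESeq2 called 2.

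Of the 17 genes of interferon input and the class I promoter, 16 could be tested. Irf1 (-0.67 ± 0.11) and Irf8 (-1.13 ± 0.18) were among those that passed as lower in DIO on d5. The d5 means of Rfxank (25.9 CPM in lean, 27.7 in DIO) and Nfyc (45.2 and 47.7) were higher in DIO. Those of the other tested genes of the list were lower. Irf1 is a transcription factor induced by interferon, and Irf8 is one of myeloid and B cells. The gene that could not be tested, Ifng itself, failed the filter. Its counts were 0 in all 9 DIO libraries of d3, d5 and d7, and between 0 and 11 in the lean libraries of those days, so its level was not measurable at this depth. From d3 to d21 in DIO callus, 6 of 9 nonclassical genes rose, among them H2-Q4 (1.80), and 3 of 3 genes of PA28, the activator cap of the proteasome, rose: Psme1 (0.86), Psme3 (0.70) and Psme2 (0.56). Of the promoter and interferon list 6 rose and 1 fell over those days. Of the loading and trimming genes Calr (-0.88) and Pdia3 (-0.67) fell, Erap1 (0.67) and Tapbpl (0.66) rose, and Canx (-0.17) did not pass.

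**Figure D5:**
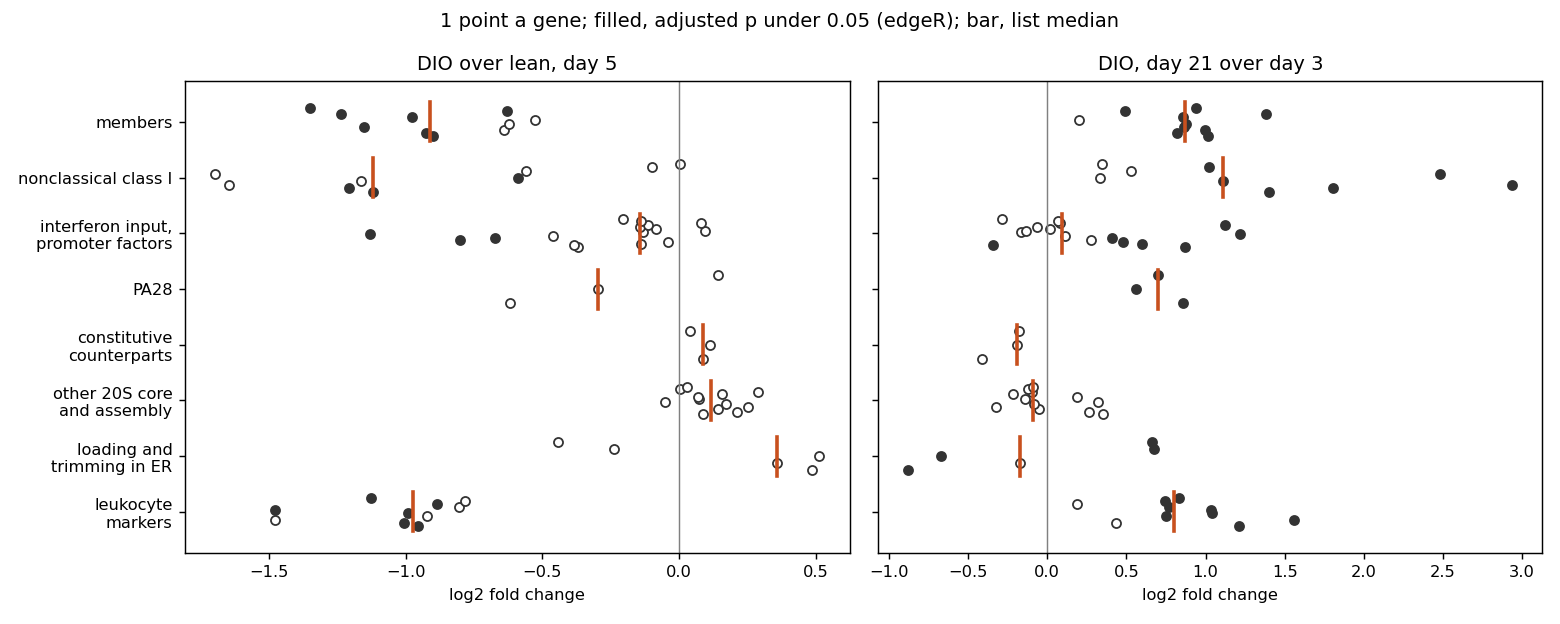
Log2 fold change of each gene (horizontal axis) by list (rows), for DIO over lean on d5 (left) and d21 over d3 in DIO callus (right); filled circles passed an adjusted p of 0.05 in edgeR and bars are list medians. The members lie with the nonclassical class I and leukocyte genes, while the constitutive proteasome genes lie near 0 on d5.

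Among themselves, the members were alike in their profile over the 30 libraries. The correlation of log2 CPM over the 45 pairs had a median of 0.85, a highest value of 0.98 (H2-K1 with H2-D1) and a lowest of 0.41 (Tap1 with Psmb10). Against the mean of the other 9 members, Tapbp (0.62) and Psmb10 (0.61) were the least alike. The 10 genes outside the list most like the members' mean profile, of 14797 compared, were H2-T23 (r = 0.95), H2-Q4 (0.94), Ly9 (0.94), Ifi47 (0.93), Sp110 (0.93), Irf9 (0.92), Parp10 (0.91), H2-K2 (0.91), Pnpla7 (0.91) and Slc46a3 (0.90). These are descriptions, since the libraries share the tissue, its cell composition and the scaling.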

How the data were processed

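Callus RNA was sequenced from 30 mice, 1 callus each. The authors trimmed the reads, aligned them to GRCm38 with HISAT2 2.1.0 and counted them on genes with HTSeq, and the deposited values are raw read counts that the authors did not scale. The strand setting of HTSeq, its version and the annotation are not given in the sources used here. No deposited column belonged to another sample.

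Symbols and positions came from GENCODE M21. Counts were scaled with TMM factors and filtered with filterByExpr in edgeR 4.0.16 (R 4.3.3), and tested with its quasi-likelihood F-test, with Benjamini-Hochberg adjustment over all genes tested and a threshold of 0.05. Lean days were fitted over 12 libraries, DIO days over 18, diets within a day over 6 and the change of the diet difference over 24. DESeq2 1.42.0, RLE factors, no filter, a replicate block, 1 fit of all 30 libraries and leaving out each library were alternatives. Ratios used two-sided exact permutation tests in SciPy 1.17.1. Likeness was Pearson's r of log2(CPM + 1), for genes of at least 1 CPM on average. Near-identical stretches came from BLAST+ 2.17.0. The fits were tested on simulated data.

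All members were described, and other genes named only from written lists or by the likeness ranking. A result of 1 listed gene is not reported here. Members and lists were chosen with earlier results of these data known. Pairs of libraries of a group had a chi-square per degree of freedom of 13.6 to 160, so none was a duplicate.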

Additional observations from a re-analysis of the deposited data

Results flagged for a closer look

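The change of the diet difference from d7 to d10 passed a test of the difference itself (edgeR, adjusted p under 0.05) for 6 members, with log2 values of 1.11 for H2-K1, 1.15 for H2-D1, 1.09 for B2m, 1.44 for Tap1, 1.87 for Psmb9 and 1.68 for Nlrc5. In the other pathway lists it passed for H2-Q4 (1.58), Cd1d1 (1.34), Irf1 (1.31), Rfx5 (1.17) and Nfya (0.66), and in the opposite direction for Calr (-0.92). Groups of 3 libraries were too small to be tested for outlying samples.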

How the results depend on the processing

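RLE factors left all 19 counts of called members as they were. Of the 30 called differences of single members, 5 changed direction on the leukocyte scale given below. That scale was taken only for the diets within a day and for DIO d21 against d3, so it does not cover all 30. Under the other alternatives 0 changed direction. The call was lost for 9 of 150 values where all libraries were kept, against 74 of 216 where 1 library was left out. With no filter on low counts, the count was 2 for lean d10 against d7 and 5 for DIO against lean on d7. With DESeq2 it was 5 over any lean day, 3 for lean d10 against d7, 5 for DIO d10 against d7, 1 for DIO d14 against d10, 1 for DIO against lean on d3 and 7 on d7. With all 30 libraries in 1 fit it was 5 over any lean day, 4 for lean d10 against d7 and 7 for DIO against lean on d7. The causes were not tested.

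Replicate numbers were not taken to pair the mice. Over lean days, same-numbered libraries had a mean correlation of 0.13, against -0.06 for other pairs. It was -0.02 against 0.009 over DIO days, and -0.21 against 0.10 between the diets on d5. With the replicate block the count was 5 over any lean day, 4 for lean d10 against d7, 4 for lean d10 against d3 and 0 for DIO against lean on d5, where 0 of 15722 genes passed, against 170 without the block.

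Leaving out 1 library each, the count ran from 1 to 2 over any lean day, 0 to 2 for lean d10 against d7, 1 to 5 for lean d10 against d3, 2 to 5 for DIO d10 against d7, 0 to 9 for DIO against lean on d5, 0 to 7 on d7 and 1 to 8 for the change of the diet difference from d7 to d10. The lean d10 against d3 count was 1 without lean d3 replicate 2 and 5 without lean d10 replicate 2. Differences near 0 changed sign. Tapbp in lean d10 against d3 was -0.0179 with RLE factors, -0.0186 with no filter, -0.00919 with the replicate block, -0.0383 in the fit of 30 libraries and -0.0183 with DESeq2, and ran from -0.151 to 0.0819 with 1 library left out. Such ranges were -0.0686 to 0.355 for Psmb10 in lean d10 against d7, -0.130 to 0.506 for Tap2 and -0.00445 to 0.302 for Tapbp in DIO d10 against d7, -0.291 to 0.0187 for Psmb10 in DIO against lean on d3, and -0.0774 to 0.244 for Tap2 on d10. For the log2 ratios they were -0.00147 to 0.587 for Psmb8 to Psmb5 on d10, -0.343 to 0.0557 for Psmb10 to Psmb7 on d3 and -0.111 to 0.03995 on d10. Adding 1 count changed no direction. Relative to the summed leukocyte count, added after seeing the data, the d5 differences of H2-K1 (0.0704), H2-D1 (0.0503) and Psmb10 (0.34) turned positive, as did those of B2m (0.33), Tap2 (0.35) and Tapbp (0.44), which had not passed the test. From d3 to d21 in DIO callus the differences of H2-D1 (-0.0264) and Psmb10 (-0.36) turned negative on that scale, as did that of Tapbp (-0.66), which had not passed. Of the 10 genes most like the members, 7 remained with Spearman's rho and 10 with RLE factors.

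For all genes, DESeq2 called 1149 on d5 and 944 on d7 between the diets, against 170 and 366 with edgeR, and 726 against 0 on d3. With 3 mice a group the number of mice limited the precision of each comparison.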
